A study of Mus musculus with 9 samples.

Results

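The genes described here are 42 genes of DNA replication and mitosis, of which 20 act in S phase, when the genome is copied, and 22 act in mitosis, when the copies are parted. They were picked by name from the 36315 genes and regions that the array names. No cutoff on their values was used, but the list was chosen with earlier results of these data known. All 42 had a probe, and where a gene had several probes the one with the highest mean over the 9 arrays stood for it. All 42 were among the 22984 genes that could be tested.

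RNA of cultured mouse LSK cells was measured on 9 one-colour Agilent arrays. LSK cells lack lineage markers, carry Sca1 and cKit, and include the stem cells and early progenitors of the marrow. There were 3 arrays of control cells, 3 of cells with both Drosha alleles floxed (Drosha fl/fl) and 3 of cells with both Dicer alleles floxed (Dicer fl/fl). All donors, those of the controls included, were female and carried the Gt(ROSA)26Sor CreERT2 allele, a Cre that tamoxifen switches on, and every culture received 250 nM 4OH-tamoxifen. The Cre is thus not limited to a blood lineage, and the agent that activates it was present in every group. Each well held 50000 cells in 50 µL with 10% fetal calf serum, 10 ng/mL of IL-3, the same of IL-6 and 50 ng/mL of SCF, and RNA was taken after 72 h. The labels do not say whether the 3 repeats of a group came from separate animals, so the p-values reflect no more than the spread among these 9 samples, which may be technical.

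A dividing cell passes from G1 into S phase once cyclin E and its kinase, and the E2F factors freed from the retinoblastoma protein, switch on the replication genes. Origins are licensed by loading the MCM helicase, which is then activated by Cdc45 and the GINS complex so that polymerases can follow. Mitosis is driven by Cdk1 with cyclins A and B and ends when the anaphase-promoting complex marks the cyclins for destruction. Most stem cells in marrow rest outside the cycle, and SCF, IL-3 and IL-6 are used in culture to bring them into division. Drosha and Dicer are the nuclear and the cytoplasmic enzyme that cut microRNAs from their precursors, so the design asks what their loss does to the cells' RNA, and the comparison of the deletions asks where the enzymes differ.

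Genes of S phase and genes of mitosis are known to be switched by different promoter elements, and the promoters of the members show this difference in their letters. RefSeq promoters on GRCm38.p6, each with 250 bases before and 50 after an annotated gene start, were held for 34 of the 42 genes, 16 of S phase and 18 of mitosis. An E2F-type site was searched as TTTCGCGC, TTTGGCGC or TTTCCCGC, a CHR element (cell cycle genes homology region) as TTTGAA or TTCGAA, and the box bound by NF-Y as CCAAT, each on both strands. No letters of 1 motif lie inside another, though neighbouring matches can overlap. The following stretches upstream of the gene start are shown because they hold matches of the classes that set the members apart. Capitals mark every match.
Mcm5 promoter: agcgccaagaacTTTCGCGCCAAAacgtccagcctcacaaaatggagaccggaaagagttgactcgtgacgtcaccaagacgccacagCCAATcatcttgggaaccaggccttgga
Mcm6 promoter: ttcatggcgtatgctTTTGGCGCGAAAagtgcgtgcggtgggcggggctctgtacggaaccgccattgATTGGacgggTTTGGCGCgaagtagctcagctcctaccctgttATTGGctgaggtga
Cdk1 promoter: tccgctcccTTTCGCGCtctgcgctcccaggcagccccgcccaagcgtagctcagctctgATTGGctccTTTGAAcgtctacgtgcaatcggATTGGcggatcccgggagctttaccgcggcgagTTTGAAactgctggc
Cdc20 promoter: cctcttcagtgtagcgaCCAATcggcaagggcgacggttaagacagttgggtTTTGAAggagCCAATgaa
Mki67 promoter: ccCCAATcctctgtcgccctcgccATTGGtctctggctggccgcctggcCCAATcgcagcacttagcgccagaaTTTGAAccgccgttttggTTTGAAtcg

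These stretches lie at chr8:75109344-75109459 on the plus strand for Mcm5 and at chr1:128359706-128359830 on the minus strand for Mcm6. Those of the mitotic genes lie on the minus strand, at chr10:69352913-69353052 for Cdk1, chr4:118437344-118437413 for Cdc20 and chr7:135716469-135716569 for Mki67. An E2F-type match was found in 7 of 16 S phase promoters, those of Cdc6, Cdt1, Mcm3, Mcm5, Mcm6, Rfc3 and Pola1, and in 1 of 18 mitotic promoters, that of Cdk1. Of all 32851 promoters in the table, 1.84% held one. A CHR match was found in 14 of 18 mitotic promoters and in 3 of 16 S phase promoters, those of Mcm2, Cdc45 and Rfc3, against 19.2% of all promoters. The NF-Y box was found in 16 of 18 mitotic and 10 of 16 S phase promoters, against 37.4% of all. A match is a description of these letters and does not show that a factor binds there.

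**Figure D1:**
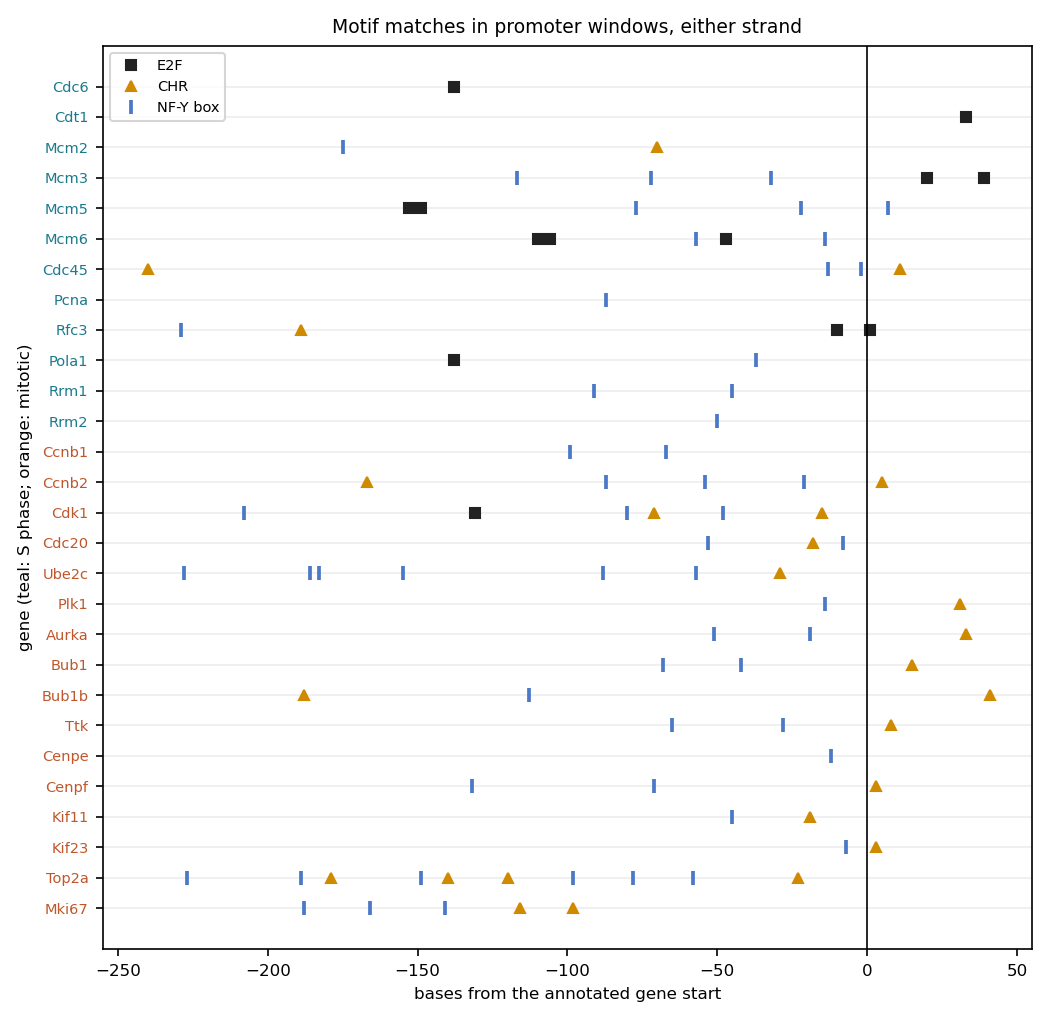
Positions of motif matches in the promoter windows, in bases from the annotated gene start, for the 28 genes with at least 1 match. Squares (E2F-type) fall on S phase genes and on Cdk1, while triangles (CHR) fall on 14 mitotic and 3 S phase genes, and bars mark the NF-Y box.

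MicroRNAs that the deleted enzymes make are known to act on members of this set, and their mature RefSeq sequences are shown because cyclin E and E2F1 are among their best known targets. Capitals mark the seed, bases 2 to 8, through which a microRNA pairs with its target. miR-15a and miR-16 share 1 seed and are known to act on the Ccne1 mRNA, and miR-17 and miR-20a share another and act on the E2f1 mRNA. miR-34a is known to act on the Ccne2 mRNA. MicroRNA levels were not analysed here.
mmu-miR-15a-5p: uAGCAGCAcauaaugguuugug
mmu-miR-16-5p: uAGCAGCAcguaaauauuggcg
mmu-miR-17-5p: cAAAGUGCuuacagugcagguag
mmu-miR-20a-5p: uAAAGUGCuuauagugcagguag
mmu-miR-34a-5p: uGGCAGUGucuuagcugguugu

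The arrays differed in ways the groups do not explain. In the authors' log2 values, control replicates 2 and 3 resembled each other (r = 0.990 across probes) more than either resembled any other array (at most 0.985), while control replicate 1 was closest to a Dicer-deleted array (0.993). The deposited column of control replicate 2 had a correlation of 0.770 to the scanner file of that array, where the other 8 columns reached 0.974 or above, and one of 0.974 to the scanner file of control replicate 3. Which array lies behind that column was not settled, so the controls may hold fewer than 3 distinct samples, and n = 3 rests on the labels. The scanner file of control replicate 2 held 18.9% of spots marked as non-uniform, and control replicate 3 was the only array on its slide, so its slide cannot be told apart from the sample. Every difference from the controls below therefore rests on controls that disagree, and many are also given against control replicate 1 alone. The Drosha level was 9.01 ± 0.27 (SD, n = 3) in Drosha-deleted and 11.92 ± 0.10 in control cells, a difference of -2.91 (limma, adjusted p = 0.000153). The Dicer1 level was 9.05 ± 0.11 in Dicer-deleted and 10.29 ± 0.32 in control cells, a difference of -1.24 (adjusted p = 0.118), and whether either probe lies in the deleted stretch is not given in the sources used here. Of 12 LSK marker genes, 11 were well above background on all arrays, as were 12 of 13 measured myeloid and 8 of 9 erythroid and megakaryocyte markers, while 3 of 11 lymphoid markers were. Among the last, Cd4, a T cell marker, was 12.24, 10.43 and 10.702 in the controls and 12.47 to 12.69 in the deletions, low in control replicates 2 and 3. The summed level of the 11 lymphoid markers was 11.53 to 12.86 in the controls, 13.04 to 13.13 in the Drosha-deleted and 12.92 to 13.10 in the Dicer-deleted cells. This is a sum of intensities, so the brightest markers, Cd4 and Cd3e, weigh most in it. Cd3e differed from the controls by 0.81 and 0.49 in the Drosha-deleted and Dicer-deleted cells. Il7r went the other way, with differences of -0.88 and -1.06, so the sum does not describe the list as a whole. Cd14, a monocyte marker, fell by 1.26 in Drosha-deleted cells (adjusted p = 0.0300). The other measured monocyte and macrophage markers were lower there too, without a small adjusted p (0.110 to 0.572). They were Csf1r (-0.49), Adgre1 (-0.40), Msr1 (-1.42) and Cx3cr1 (-1.55). In the same cells the measured neutrophil markers differed by 0.29 to 0.93 and the dendritic ones by -0.07 to -0.27. The summed level of the 13 measured myeloid markers was 18.21 to 18.83 in the controls. It was 18.70 to 19.002 in the Drosha-deleted and 17.70 to 18.80 in the Dicer-deleted cells. In this sum of intensities Mpo, a neutrophil marker at 16.96 to 18.28, weighs most. What part these markers have in the members' values was not tested. The arrays measured whole cultures, in which fewer cells of a type and less RNA per cell cannot be told apart.

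Most of the replication and mitosis genes were bright in all 9 cultures, though Cenpf (6.25 to 6.70) and Ccne2 (5.45 to 7.49) were dim. The median of the mean log2 levels of the 42 genes was 12.91, against 9.16 over all genes tested, and none of their probes was saturated. Each of them was well above background on all 9 arrays except Ccne2, which was so on 8. They varied little: the median range of a gene over the 9 arrays was 0.49 log2 units for the 42 genes and 0.79 for all genes tested, and a range above 1 was found for 7 of the 42 (16.7%) and for 33.4% of all. The members and all genes were not matched for level in this comparison.

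No member passed the threshold of 0.05 on the adjusted p of limma's test in any comparison. In Drosha-deleted against control cells, 0 of 42 were called, where 0.170% of all genes were. The smallest adjusted p was 0.0999, for Ccne2, and 11 of 42 had an unadjusted p under 0.05, against 26.9% of all genes. In Dicer-deleted against control cells, 0 of 42 were called, where 0.0174% of all genes were. The smallest adjusted p was 0.159, for Ccne1, and 10 of 42 had an unadjusted p under 0.05, against 21.9% of all genes. Between the deletions, 0 of 42 were called and 0.0566% of all genes were. Here the smallest adjusted p was 0.745, for Ccna2, and 2 of 42 had an unadjusted p under 0.05, against 5.66% of all genes. The shares of members with an unadjusted p under 0.05, 26.2%, 23.8% and 4.76%, are near those of all genes.

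The intervals show how precisely each difference was estimated, and they do not exclude larger changes. Each was drawn for its gene by itself and takes the controls as distinct samples, which was not settled. An interval also covers only the probe used. For Cdk1 in Dicer-deleted against control cells it was 0.16 to 0.997, while the other probes of the gene gave 1.85 and -0.13. The 95% interval of the difference lay between -1 and 1 log2 units, that is within a 2-fold change, for 39 of 42 genes in Drosha-deleted against control cells. The same held for 38 of 42 in Dicer-deleted against control cells and for 38 of 42 between the deletions. Of all 22984 genes tested it held for 17300, 17763 and 20736 in that order. Between the deletions the share of members was near that of all genes. The median half-width of these intervals was 0.29. A difference above 1 log2 unit was measured for Ccne2 and Aurkb, against the controls in both deletions, and for no other member.

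**Figure D2:**
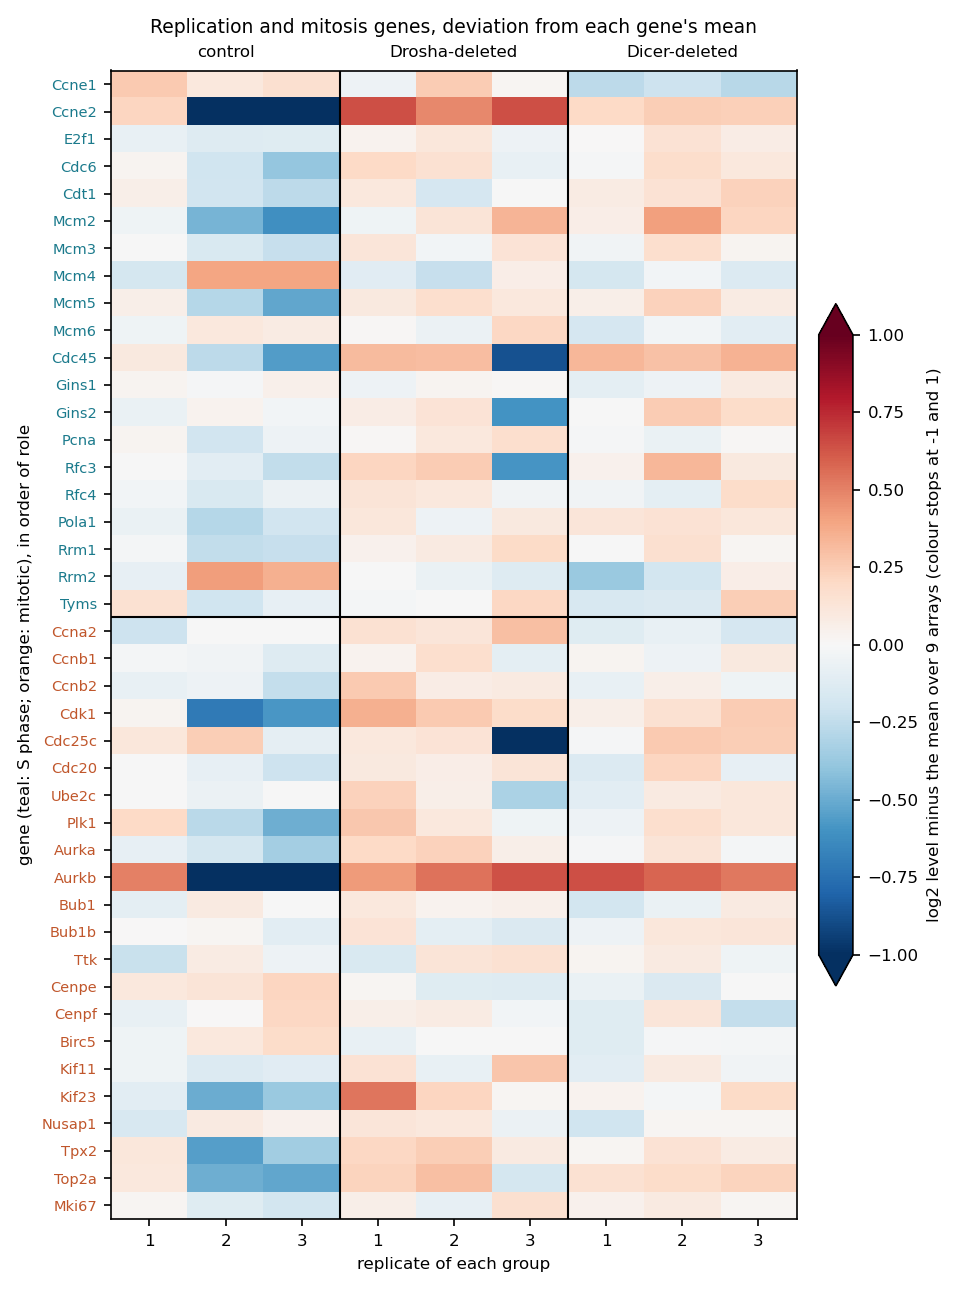
Each row is a gene and each column an array, and colour gives the log2 level minus the gene's mean over 9 arrays, with colour stopping at -1 and 1. Ccne2, Aurkb and Cdk1 stand out as low in control replicates 2 and 3 but not in control replicate 1, and Cdc45, Gins2, Rfc3 and Cdc25c as low in Drosha-deleted replicate 3.

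The entry into S phase is represented by cyclin E1, cyclin E2 and E2f1. The Ccne1 level was 11.90, 11.74 and 11.80 in the controls, 11.58, 11.89 and 11.65 in the Drosha-deleted cells and 11.37, 11.43 and 11.36 in the Dicer-deleted cells. The 3 Dicer-deleted arrays were the lowest of the 9 and agreed closely with each other. The difference from the controls was -0.42 ± 0.12 (SE), or 1.34-fold lower (adjusted p = 0.159), and it was -0.51 against control replicate 1 alone. The lower Ccne1 level of the Dicer-deleted cells thus did not shrink when control replicates 2 and 3 were left out. In Drosha-deleted cells it was -0.10 ± 0.12 from the controls (adjusted p = 0.582).

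Ccne2 encodes the second E-type cyclin. Its level was 7.05, 5.56 and 5.45 in the controls, 7.48, 7.32 and 7.49 in the Drosha-deleted cells and 7.04, 7.09 and 7.08 in the Dicer-deleted cells. Control replicates 2 and 3 were low, below the median values of those columns (6.37 and 6.38), so differences from them rest on dim values. Control replicate 1 was at the level of the Dicer-deleted cells. The difference was 1.41 ± 0.36 in Drosha-deleted cells (2.66-fold, adjusted p = 0.0999) and 1.05 ± 0.36 in Dicer-deleted cells (2.07-fold, adjusted p = 0.179). Against control replicate 1 alone these were 0.38 and 0.02. E2f1, the transcription factor of the S phase programme, was 0.14 and 0.18 higher in the Drosha-deleted and Dicer-deleted cells than in the controls (adjusted p = 0.411 and 0.317).

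Cdc6 and Cdt1 load the MCM helicase on origins. Cdc6 was 0.28 higher than in the controls in each deletion (adjusted p = 0.231 and 0.274), and 0.06 higher than in control replicate 1 alone. Cdt1 was 0.11 and 0.28 higher in the Drosha-deleted and Dicer-deleted cells (adjusted p = 0.601 and 0.238), and differed by -0.08 and 0.09 from control replicate 1 alone.

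The 5 subunits of the MCM2-7 helicase among the members did not share 1 direction. The remaining subunit, Mcm7, was measured too and is counted with the further replication genes below. The Mcm2 level was 13.42, 12.99 and 12.84 in the controls, 13.42, 13.58 and 13.80 in the Drosha-deleted cells and 13.52, 13.87 and 13.67 in the Dicer-deleted cells. Control replicates 2 and 3 were the lowest of the 9. The difference was 0.52 ± 0.18 in Drosha-deleted cells (adjusted p = 0.129) and 0.60 ± 0.18 in Dicer-deleted cells (adjusted p = 0.165), and 0.18 and 0.27 against control replicate 1 alone. The Mcm5 level was 14.16, 13.82 and 13.59 in the controls, 14.21, 14.27 and 14.22 in the Drosha-deleted cells and 14.16, 14.34 and 14.19 in the Dicer-deleted cells. Control replicate 1 lay with the deletions, and the difference of 0.37 ± 0.15 in each (adjusted p = 0.162 and 0.205) became 0.07 in each against it alone.

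Mcm4 went the other way. Its level was 14.44, 15.01 and 15.00 in the controls, 14.50, 14.38 and 14.68 in the Drosha-deleted cells and 14.43, 14.58 and 14.47 in the Dicer-deleted cells. Control replicates 2 and 3 were the highest of the 9, and control replicate 1 lay among the deletions. The differences were -0.30 ± 0.17 and -0.32 ± 0.17 (adjusted p = 0.283 and 0.293), and turned to 0.08 and 0.06 against control replicate 1 alone. Mcm3 was 0.20 and 0.18 higher in the Drosha-deleted and Dicer-deleted cells, and Mcm6 differed by 0.00 and -0.15.

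Cdc45, Gins1 and Gins2 join the helicase and activate it. The Cdc45 level was 9.31, 8.94 and 8.65 in the controls, 9.52, 9.51 and 8.34 in the Drosha-deleted cells and 9.54, 9.51 and 9.56 in the Dicer-deleted cells. All 3 Dicer-deleted arrays lay above the controls, by 0.57 ± 0.31 on average (adjusted p = 0.295) and by 0.23 over control replicate 1 alone, while Drosha-deleted replicate 3 was the lowest of the 9. The Gins2 level was 11.20, 11.30 and 11.24 in the controls, 11.34, 11.40 and 10.67 in the Drosha-deleted cells and 11.26, 11.52 and 11.45 in the Dicer-deleted cells. Again Drosha-deleted replicate 3 was alone at the low end. Gins1 differed by -0.02 and -0.04 from the controls in the Drosha-deleted and Dicer-deleted cells.

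Pcna, the sliding clamp, Rfc3 and Rfc4, subunits of its loader, and Pola1, the catalytic subunit of polymerase alpha, lay between 0.05 and 0.31 above the controls in both deletions. Against control replicate 1 alone the direction turned for Pcna in Dicer-deleted cells (-0.05) and for Rfc3 in Drosha-deleted cells (-0.03). Pola1 showed the most even difference: its level was 12.25, 12.03 and 12.12 in the controls, 12.43, 12.27 and 12.42 in the Drosha-deleted cells and 12.44, 12.46 and 12.43 in the Dicer-deleted cells. Neither deletion overlapped the controls. The difference was 0.24 ± 0.11 in Drosha-deleted cells (adjusted p = 0.202) and 0.31 ± 0.11 in Dicer-deleted cells (adjusted p = 0.184), and 0.12 and 0.20 against control replicate 1 alone.

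Ribonucleotide reductase (Rrm1 and Rrm2) and thymidylate synthase (Tyms) supply deoxynucleotides. The level of Rrm2, the small subunit of the reductase, was 14.00, 14.50 and 14.44 in the controls, 14.08, 14.02 and 13.95 in the Drosha-deleted cells and 13.71, 13.90 and 14.15 in the Dicer-deleted cells. Control replicates 2 and 3 were the highest of the 9. The differences were -0.30 ± 0.17 and -0.39 ± 0.17 (adjusted p = 0.276 and 0.217), and 0.02 and -0.08 against control replicate 1 alone. Its partner subunit Rrm1 lay on the other side, 0.28 and 0.23 above the controls (adjusted p = 0.171 and 0.276) and 0.13 and 0.08 above control replicate 1 alone. Tyms differed by 0.10 and 0.02 from the controls, and by -0.09 and -0.17 from control replicate 1 alone.

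Among the mitotic genes, Cdk1 is the kinase that starts mitosis. Its level was 12.84, 12.10 and 12.23 in the controls, 13.16, 13.08 and 12.99 in the Drosha-deleted cells and 12.87, 12.97 and 13.07 in the Dicer-deleted cells. Every array of the deletions lay above every control, with control replicate 1 nearest. The difference was 0.69 ± 0.19 in Drosha-deleted cells (1.61-fold, adjusted p = 0.104) and 0.58 ± 0.19 in Dicer-deleted cells (1.49-fold, adjusted p = 0.173). Against control replicate 1 alone it was 0.24 and 0.13.

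The cyclins that bind Cdk1 varied less. The Ccnb1 level was 13.22, 13.21 and 13.11 in the controls, 13.27, 13.40 and 13.14 in the Drosha-deleted cells and 13.26, 13.19 and 13.34 in the Dicer-deleted cells. The groups overlapped, with differences of 0.09 and 0.08 from the controls (adjusted p = 0.616 and 0.670). Cyclin A2 acts in S phase and in early mitosis. The Ccna2 level was 13.07, 13.27 and 13.28 in the controls, 13.43, 13.40 and 13.58 in the Drosha-deleted cells and 13.16, 13.20 and 13.10 in the Dicer-deleted cells. The Drosha-deleted arrays were the highest 3 of the 9, by 0.26 ± 0.11 over the controls (adjusted p = 0.177) and by 0.40 over control replicate 1 alone. Ccnb2 was 0.26 and 0.10 above the controls in the Drosha-deleted and Dicer-deleted cells (adjusted p = 0.180 and 0.595).

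Cdc25c, the phosphatase that removes the inhibitory phosphates from Cdk1, stood apart on 1 array. Its level was 9.32, 9.45 and 9.11 in the controls, 9.30, 9.34 and 8.18 in the Drosha-deleted cells and 9.19, 9.46 and 9.45 in the Dicer-deleted cells. Drosha-deleted replicate 3 lay far below the other 8, which overlapped. Cdc20, which activates the anaphase-promoting complex, was 0.20 and 0.10 above the controls, and Ube2c, the ubiquitin-conjugating enzyme of that complex, differed by 0.01 and 0.05.

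Of the mitotic kinases, Plk1 had levels of 14.09, 13.62 and 13.40 in the controls, 14.16, 13.99 and 13.85 in the Drosha-deleted cells and 13.84, 14.06 and 14.00 in the Dicer-deleted cells. Control replicates 2 and 3 were the lowest of the 9. Its differences of 0.30 ± 0.18 and 0.26 ± 0.18 (adjusted p = 0.312 and 0.397) turned to -0.09 and -0.12 against control replicate 1 alone. Aurkb, the kinase of the chromosomal passenger complex, had the largest difference of all members. Its level was 8.93, 6.69 and 6.32 in the controls, 8.86, 8.98 and 9.07 in the Drosha-deleted cells and 9.08, 9.01 and 8.96 in the Dicer-deleted cells. Control replicates 2 and 3 lay far below the other 7 arrays, which spanned 8.86 to 9.08. The differences were 1.66 ± 0.56 (3.15-fold, adjusted p = 0.124) and 1.70 ± 0.56 (3.25-fold, adjusted p = 0.175), and 0.04 and 0.08 against control replicate 1 alone. Aurka, which acts at the spindle poles, was 0.36 and 0.23 above the controls (adjusted p = 0.122 and 0.269) and 0.25 and 0.12 above control replicate 1.

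The spindle checkpoint kinases Bub1 and Ttk and the checkpoint protein Bub1b lay within 0.11 of the controls in both deletions. Against control replicate 1 alone, Ttk was 0.27 and 0.25 higher in the Drosha-deleted and Dicer-deleted cells, and Bub1 was 0.16 higher in the Drosha-deleted cells. The Cenpe level, a kinetochore motor protein, was 13.29, 13.32 and 13.40 in the controls, 13.20, 13.07 and 13.06 in the Drosha-deleted cells and 13.12, 13.04 and 13.18 in the Dicer-deleted cells. Both deletions lay below all controls, by 0.23 and 0.22 (differences of -0.23 ± 0.11 and -0.22 ± 0.11, adjusted p = 0.204 and 0.250), and control replicate 1 was 0.18 above each. Cenpe and Ccne1 are the members with a lower level in the Dicer-deleted cells on all 3 arrays than on any control. Cenpf, another kinetochore protein, differed by -0.01 and -0.13, and Birc5, the survivin subunit of the passenger complex, by -0.11 and -0.13.

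The spindle and cytokinesis genes Kif11, Kif23, Nusap1 and Tpx2 lay 0.06 to 0.58 above the controls in Drosha-deleted cells and between -0.05 and 0.40 of them in Dicer-deleted cells. The Kif23 level, a motor protein of the midbody, was 10.58, 10.19 and 10.32 in the controls, 11.22, 10.91 and 10.71 in the Drosha-deleted cells and 10.73, 10.67 and 10.88 in the Dicer-deleted cells. Neither deletion overlapped the controls. The difference of 0.58 ± 0.16 in Drosha-deleted cells (adjusted p = 0.110) was 0.36 against control replicate 1 alone, and that of 0.40 in Dicer-deleted cells was 0.18. Tpx2 was 0.45 and 0.34 above the controls, but differed by 0.07 and -0.03 from control replicate 1 alone. Top2a, the topoisomerase that untangles sister chromatids, was 0.42 and 0.49 above the controls (each adjusted p = 0.200) but 0.01 and 0.08 above control replicate 1. The Mki67 level, the proliferation marker Ki-67, was 15.25, 15.11 and 15.05 in the controls, 15.29, 15.16 and 15.39 in the Drosha-deleted cells and 15.28, 15.32 and 15.25 in the Dicer-deleted cells. These overlap, with differences of 0.14 and 0.15 (adjusted p = 0.435 and 0.448).

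**Figure D3:**
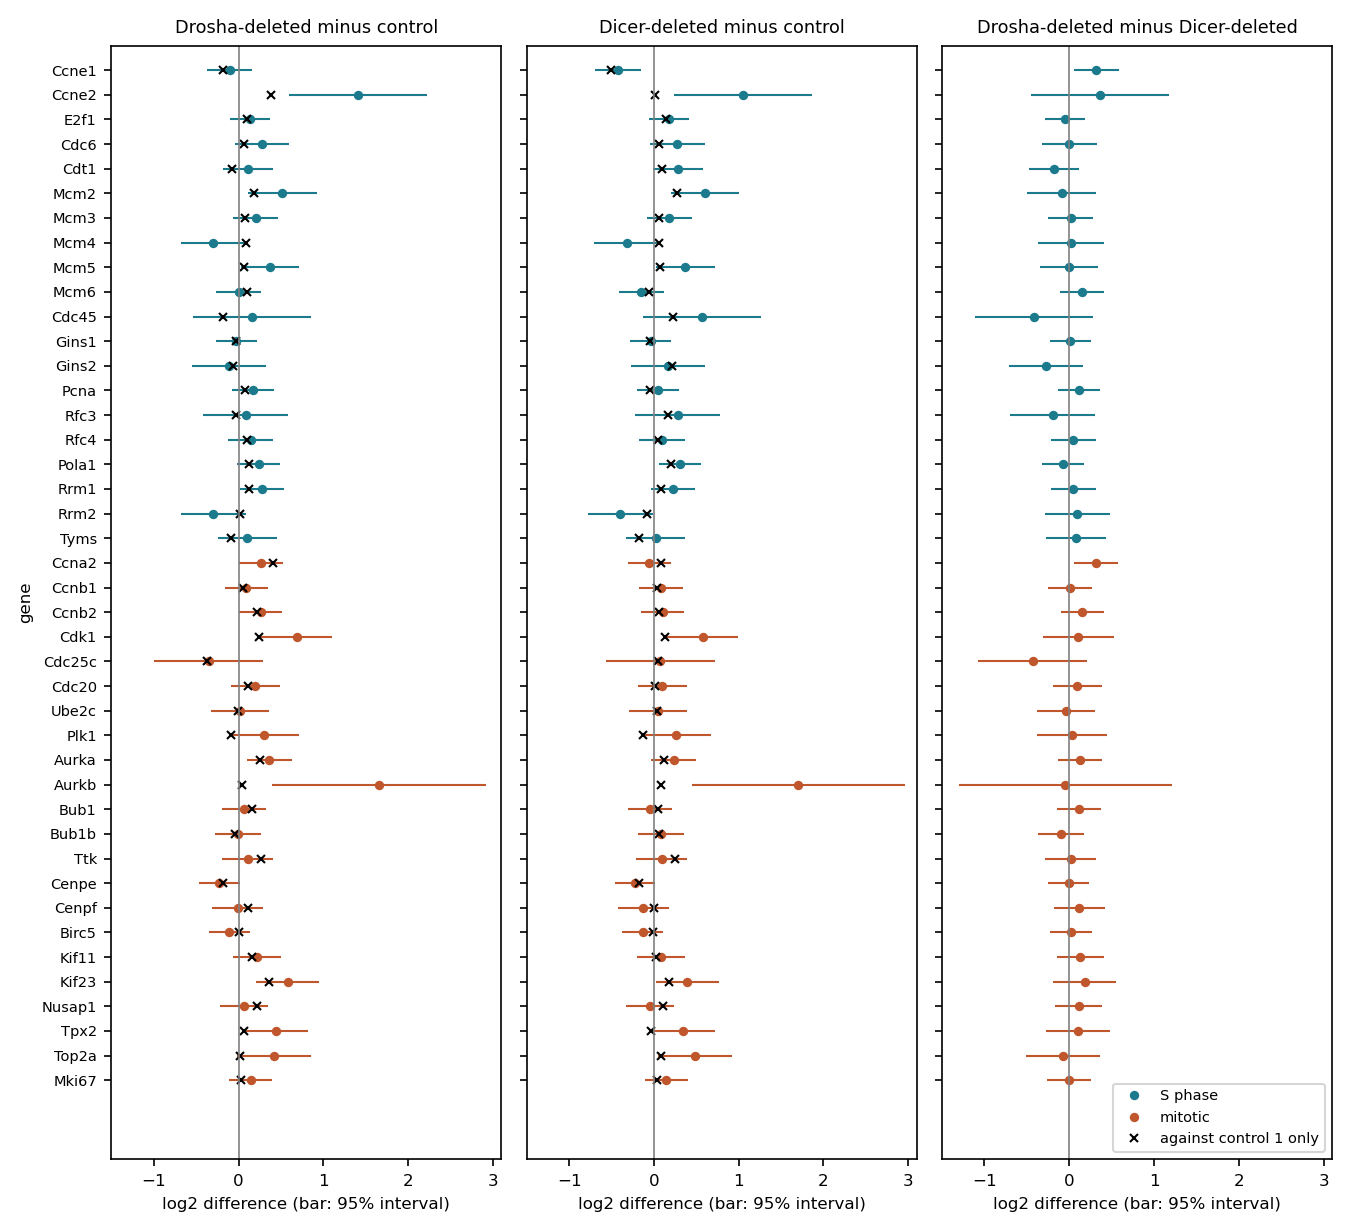
Log2 difference of each gene in the 3 comparisons, with circles and bars for the estimate and its 95% interval over 3 arrays a group, and crosses for the difference from control replicate 1 alone. Crosses of Ccne2 and Aurkb lie near 0 to 0.38, far left of their circles at 1.05 to 1.70, while those of Ccne1 and Cenpe stay near their circles.

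Counted by groups that do not overlap, 12 of 42 genes lay above all controls and 1 below in Drosha-deleted cells, where 12.6% and 10.5% of all genes did so. In Dicer-deleted cells 12 lay above and 2 below, where 11.7% and 9.95% of all genes did so. The share above the controls, 28.6% in each deletion, exceeds that of all genes, and both comparisons use the same controls. Of the 42 genes, 26 were higher in control replicate 1 than in both other controls and 11 were lower, against 9568 and 10042 of all 22984 genes. This count was not repeated with controls left out, and what part the split between the controls has in it was not tested.

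The count of members past the threshold changed when control replicate 1 was left out. Without control replicate 1, 14 of 42 passed in Drosha-deleted cells, 12 higher and 2 lower, and 14 in Dicer-deleted cells, 11 higher and 3 lower. In that setting 7739 and 7021 of all 22984 genes passed, a share near that of the members. The control arm was then control replicates 2 and 3, which may not be distinct samples, so these counts say nothing about stability either. Higher in Drosha-deleted cells in that setting were the members Ccne2, Cdc6, Mcm2, Mcm5, Rrm1, Cdk1, Plk1, Aurka, Aurkb, Kif23, Tpx2 and Top2a. Mcm4 and Rrm2 were lower. With control replicates 2 and 3 left out, the control arm is 1 sample, which is assumed to vary like the other groups, and no member passed. The smallest adjusted p of a member was then 0.860 in Drosha-deleted and 0.9997 in Dicer-deleted against control cells, and this count says nothing about stability. The comparison of the deletions with each other does not use the level of the controls, and 0 of 42 members passed there in every alternative run.

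Between the deletions, differences were smaller. The median absolute difference of the 42 genes was 0.10 log2 units, against 0.13 over all genes. In 5 genes every Drosha-deleted array lay above every Dicer-deleted array, namely Ccne1, Ccne2, Pcna, Ccna2 and Ccnb2, and in Pola1 every one lay below, where 8.61% and 6.79% of all genes did so. Ccne1 was 0.32 ± 0.12 higher (1.25-fold, adjusted p = 0.754), Ccna2 was 0.32 ± 0.11 higher (1.24-fold, adjusted p = 0.745) and Ccne2 was 0.36 ± 0.36 higher (adjusted p = 0.999). The most negative differences were those of Cdc25c (-0.43 ± 0.28), Cdc45 (-0.41 ± 0.31) and Gins2 (-0.27 ± 0.19), each with an adjusted p of 0.999. Without Drosha-deleted replicate 3 these differences were -0.05, -0.02 and -0.04. Against the controls, leaving that array out moved Cdc45 from 0.16 to 0.55 (adjusted p = 0.154), Gins2 from -0.11 to 0.13, Rfc3 from 0.08 to 0.36 and Cdc25c from -0.35 to 0.03.

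The low values of that array were looked at across the set. Drosha-deleted replicate 3 lay below the mean of the other Drosha-deleted arrays by 1.18 for Cdc45 (-1.18), 1.14 for Cdc25c (-1.14), 0.82 for Rfc3 (-0.82) and 0.71 for Gins2 (-0.71). The Rfc3 level was 10.61, 10.51 and 10.37 in the controls, 10.84, 10.88 and 10.03 in the Drosha-deleted cells and 10.66, 10.95 and 10.72 in the Dicer-deleted cells, so that the array was the lowest of the 9. It was the lowest of the 9 for 6 of 42 genes (14.3%) and for 12.7% of all genes. A gap of at least 0.5 was found for 4 of 42 (9.52%) and for 6.75% of all genes, so the count is near that of other genes. Outside the set the cyclin genes Ccnd1 and Ccnd2 and the inhibitor gene Cdkn2b were also lowest on it, and Cdkn2a lay furthest below the other Drosha-deleted arrays among the genes of the pathway lists (-1.69). Other genes of the same lists went the other way on this array. Cdkn1c (0.66), E2f8 (0.62), Myb (0.59) and Cdk6 (0.58) lay above the mean of the other Drosha-deleted arrays.

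**Figure D4:**
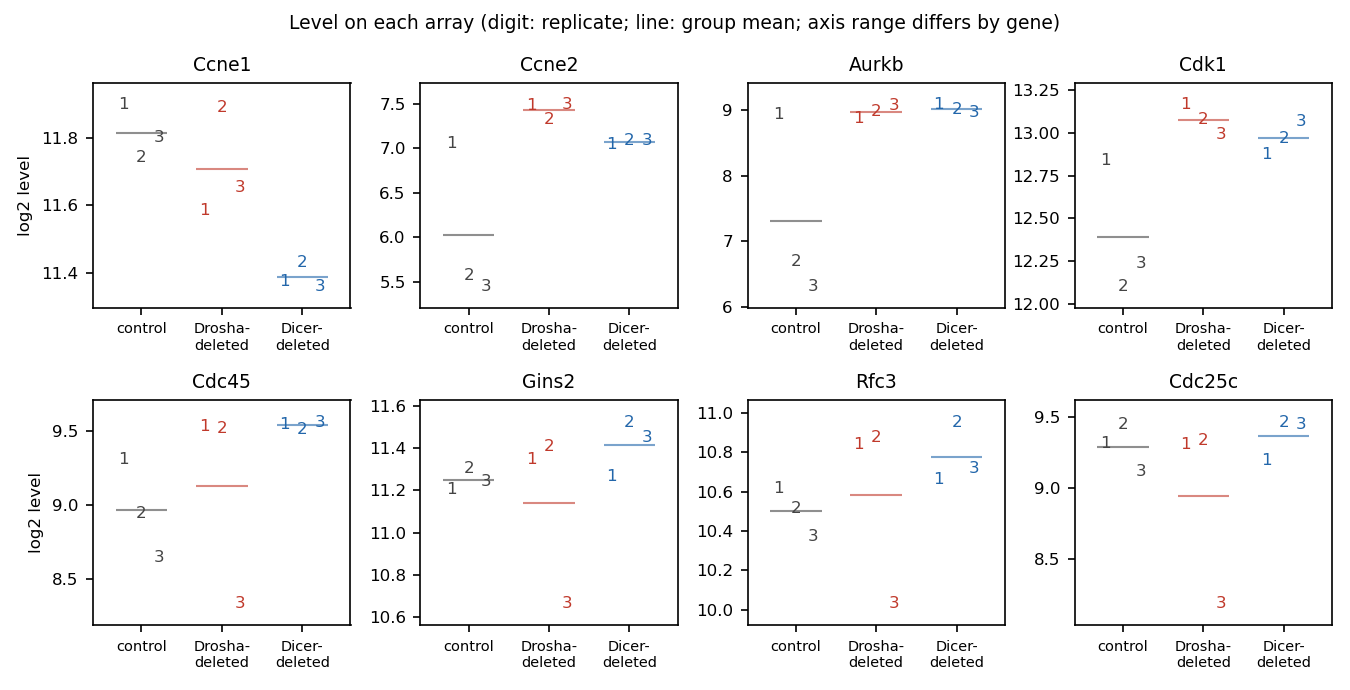
Log2 level of 8 genes on each array, with digits for replicates and lines for group means. The upper panels show Ccne1 low in all Dicer-deleted arrays and Ccne2, Aurkb and Cdk1 low in control replicates 2 and 3, and the lower panels show Drosha-deleted replicate 3 low for Cdc45, Gins2, Rfc3 and Cdc25c.

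S phase genes were then set against mitotic genes. The median difference from the controls was 0.14 for S phase and 0.17 for mitotic genes in Drosha-deleted cells, and 0.18 and 0.09 in Dicer-deleted cells, where the median over all genes was 0.00 in each. Against control replicate 1 alone the medians were 0.07 and 0.09 in Drosha-deleted and 0.06 and 0.05 in Dicer-deleted cells. For each array the median deviation of the mitotic genes from their means was subtracted from that of the S phase genes. This S phase minus mitotic value was 0.01, -0.12 and -0.03 in the controls, -0.08, 0.00 and 0.01 in the Drosha-deleted cells and 0.05, 0.06 and 0.05 in the Dicer-deleted cells. The Dicer-deleted arrays lay above the other 6 by a few hundredths of a log2 unit. Group means were -0.05 ± 0.06, -0.02 ± 0.05 and 0.05 ± 0.006 (SD, n = 3), with no test made of a score over chosen genes.

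**Figure D5:**
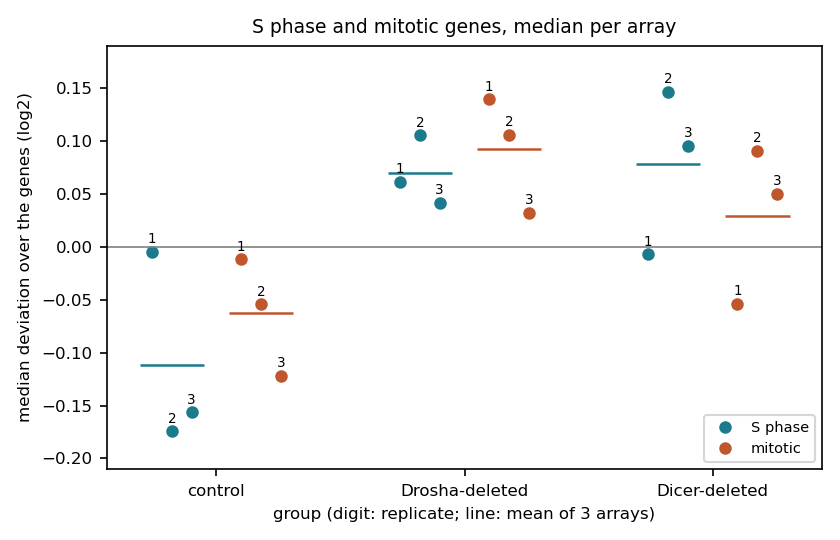
Median deviation of the 20 S phase and 22 mitotic genes from their means on each array, in log2 units, with digits for replicates and lines for the mean of 3 arrays. Values span -0.17 to 0.15, with control replicates 2 and 3 at the bottom for the S phase genes and Dicer-deleted replicate 1 below the other Dicer-deleted arrays in both classes.

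For 9 of the 42 genes the array holds several probes, and these did not always give 1 answer. The Cdk1 probe used, at 68801072 to 68801131 of chromosome 10 on mm9, gave a difference of 0.69 between Drosha-deleted cells and controls. A second probe that overlaps it, at 68801053 to 68801112, gave 1.98. On that probe control replicates 2 and 3 were low, at 7.68 and 7.75 against 10.17 in control replicate 1, and the difference from control replicate 1 alone was 0.34. Another probe nearer the 3′ end, at 68799513 to 68799572, gave -0.04. For Tpx2, whose product carries Aurka to the spindle, the values were 0.45 and -0.27, and for Cdc6 they were 0.28 and -0.39. For Ccne1 the Dicer-deleted minus control difference was -0.42 on the probe used and -0.18 on the other. Drosha-deleted replicate 3 lay 1.17 and 0.84 below the other Drosha-deleted arrays on the dimmer Ccnb1 probes (-1.17 and -0.84) and 0.20 below on the bright one (-0.20), which lies nearest the 3′ end. Which transcripts each probe reads was not tested.

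Other genes of the same pathways were counted too. None of 42 further replication genes, 50 further mitotic genes, 14 cyclins, kinases and transcription factors of G1, and 19 brakes on the cycle passed the threshold in any comparison. Of all genes, 0.170% passed in Drosha-deleted and 0.0174% in Dicer-deleted against control cells, and 0.0566% between the deletions. A count of 0 is thus near the share of all genes. In Drosha-deleted against control cells 6 of the 42 further replication genes had an unadjusted p under 0.05, as did 11 of the 50 mitotic genes, 3 of the 14 of G1 and 6 of the 19 brakes, against 26.9% of all genes. In Dicer-deleted against control cells these counts were 5, 9, 0 and 7, against 21.9% of all genes. Between the deletions they were 0, 6, 0 and 3, against 5.66% of all genes. The 6 further mitotic genes are 12% of their list and the 3 brakes are 15.8% of theirs. The median differences in Drosha-deleted cells were -0.05, 0.08, -0.12 and -0.13, and in Dicer-deleted cells 0.02, 0.01, -0.06 and -0.12. Against control replicate 1 alone they were 0.02, 0.05, 0.02 and 0.06 in Drosha-deleted cells, and 0.06, 0.01, 0.06 and 0.07 in Dicer-deleted cells. The negative medians thus turned positive against that control.

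Among the further replication genes, Dbf4, the activator of the Cdc7 kinase that fires origins, was -0.82 and -0.68 from the controls in the Drosha-deleted and Dicer-deleted cells (adjusted p = 0.110 and 0.178). Against control replicate 1 alone these were -0.21 and -0.07. Orc3, of the origin recognition complex, was 0.42 above the controls in Drosha-deleted cells (adjusted p = 0.103) and 0.32 above control replicate 1. Among the further mitotic genes, Prc1, which bundles the microtubules of the central spindle, had levels of 13.12, 13.08 and 13.09 in the controls, 13.70, 13.46 and 13.60 in the Drosha-deleted cells and 12.93, 13.07 and 13.07 in the Dicer-deleted cells. Its controls agreed, and the Drosha-deleted cells lay above all others, by 0.49 over the controls (adjusted p = 0.0879) and by 0.56 over the Dicer-deleted cells (adjusted p = 0.232). Zwint, a kinetochore protein, and Smc4, of condensin, were 0.50 and 0.49 above the controls in Drosha-deleted cells (adjusted p = 0.1005 and 0.103).

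Upstream of S phase, Ccnd3, a D-type cyclin, was 0.72 above the controls in Drosha-deleted cells (adjusted p = 0.104) and 0.36 above control replicate 1. Foxm1, a transcription factor of the mitotic genes, was 0.35 above the controls in Drosha-deleted cells (adjusted p = 0.119), with the same 0.35 against control replicate 1. Among the brakes, Cdkn2a, which encodes the Cdk inhibitor p16 and the p53 regulator p19Arf, had the largest differences. Its level was 9.21, 9.17 and 9.77 in the controls, 8.52, 8.19 and 6.66 in the Drosha-deleted cells and 6.83, 6.46 and 7.32 in the Dicer-deleted cells. Both deletions lay below all controls, and Drosha-deleted replicate 3 lay below the other Drosha-deleted arrays. The difference was -1.59 in Drosha-deleted cells (adjusted p = 0.109) and -2.51 in Dicer-deleted cells (adjusted p = 0.118), and -1.42 and -2.34 against control replicate 1 alone. Without Drosha-deleted replicate 3 the difference in Drosha-deleted cells was -1.03. Wee1, the kinase that holds Cdk1 inactive, was 0.61 and 0.43 above the controls (adjusted p = 0.0907 and 0.176), and 0.34 and 0.15 above control replicate 1.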

How the data were processed

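RNA from 9 cultures was hybridised in Cy3 to Agilent design 28005. The authors' deposited values, in log2, were used for all levels and tests. The submitters' processing notes name limma without a version, and the steps for background and normalization were not stated there. The deposited scanner files hold intensity values that, per the file headers, come from Agilent Feature Extraction with probes placed on mm9, and they gave probe names, background calls and alternative values. Control spots were left out, and 1 probe stood for a gene, the one with the highest mean over 9 arrays. Genes were tested if, in 1 group or more, the probe lay well above background on all 3 arrays. A mean per group was fitted over all 9 arrays with limma 3.58.1 (in R 4.3.3), with two-sided moderated tests and Benjamini-Hochberg adjustment over all 22984 genes at 0.05. The fit was tested on simulated data with independent arrays, which did not carry the split between the controls.

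The members, lists and tests were chosen with earlier results of these data known. Values on every array are printed for the 3 members with the largest and smallest difference per comparison and for Ccne1, Ccne2, Mcm5, Rrm2, Cdk1, Ccnb1, Plk1 and Mki67, and Cenpe, Kif23, Pola1 and Rfc3, which fell outside this rule, were added after their values were seen. Of each other list, up to 4 genes with the smallest adjusted p could be named. For the account of Drosha-deleted replicate 3, Ccnd1, Ccnd2, Cdkn2b, Cdkn1c, E2f8, Myb and Cdk6 were picked by their values on that array. Alternatives used scanner values as log2 less the array's 75th percentile, normexp (offset 50) with quantile normalization, other probe filters, mean probes, a replicate block, 1 slide, robust moderation, array weights, and leaving samples out. Leaving out control replicates 2 and 3 together was chosen after seeing the data. Samples with the same replicate number did not deviate together, with correlations of -0.28 to 0.24, against -0.30 to 0.28 for different numbers. The number of arrays limits the precision.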

Additional observations from a re-analysis of the deposited data

How the results depend on the processing

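No member passed the threshold under any alternative except 2. Among the others, leaving out control replicates 2 and 3 leaves 1 control sample, assumed to vary like the other groups, and its count of 0 says nothing about stability. With array weights, which gave control replicate 1 a weight of 0.146, 19 of 42 passed in Drosha-deleted and 20 in Dicer-deleted against control cells, among 11640 and 10030 of all genes, and 149 genes but 0 members passed between the deletions. Without control replicate 1, 14 and 14 passed, and the control arm was then control replicates 2 and 3, which may not be distinct samples. Over all ways of leaving out 1 array, members called ranged from 0 to 14 in each comparison with the controls and all genes called from 4 to 7739 (Drosha-deleted), 0 to 7021 (Dicer-deleted) and 4 to 16 (between the deletions).

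The count of all genes called was 39 for Drosha-deleted against control cells, 4 for Dicer-deleted against control cells and 13 between the deletions. In that order it was 9 and 2 (first and last) with scanner values and 10 and 5 with control replicate 2 left out as well. With normexp and quantile normalization it was 1, 0 and 1. Without a filter on dim probes it was 25 and 2 in the comparisons with the controls, and with probes well above background on all 9 arrays it was 2 for Dicer-deleted cells. On the slide that holds 8 arrays it was 13 for Drosha-deleted against control cells and 7 between the deletions. With trend and robust moderation it was 2 for Dicer-deleted cells and 20 between the deletions, and with control replicates 2 and 3 left out it was 21 for Dicer-deleted cells. With the replicate number as a block, the replicate block, it was 4, 0 and 5, with 0 members called, and the numbers did not pair the samples.

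The median difference from the controls of S phase and mitotic members was 0.50 and 0.62 in Drosha-deleted and 0.53 and 0.55 in Dicer-deleted cells with scanner values, where the median of all genes was 0.36 and 0.38. With control replicate 2 also left out, the S phase medians were 0.043 and 0.10. With normexp the mitotic medians were 0.31 and 0.21. With the mean over probes the mitotic median in Drosha-deleted cells was 0.10, with control replicates 2 and 3 left out it was 0.087 and the S phase median in Dicer-deleted cells 0.062, and with array weights the mitotic median between the deletions was 0.14. The difference between groups in the S phase minus mitotic value, 0.03 in the Drosha-deleted and 0.10 in the Dicer-deleted cells over the controls, was -0.063 and 0.022 with scanner values, -0.028 and 0.048 with control replicate 2 also left out, -0.036 and 0.033 with normexp, and 0.041 in Dicer-deleted cells with control replicates 2 and 3 left out. The cause of these shifts was not tested. Arrays, 3 a group, limit what can be seen.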

Other observations

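Some other regulators of the cycle differed between groups without passing the threshold. E2f7, a repressor of E2F target genes, had levels of 10.95, 11.26 and 11.11 in the controls, 11.41, 11.00 and 11.42 in the Drosha-deleted cells and 10.62, 10.72 and 10.73 in the Dicer-deleted cells, a difference of 0.59 between the deletions (limma, adjusted p = 0.410). E2f5, another repressive E2F, was 0.55 lower in Drosha-deleted than in Dicer-deleted cells (a difference of -0.55, adjusted p = 0.612). Cdkn2d, the Cdk inhibitor p19Ink4d, was -0.52 from the controls in Dicer-deleted cells (adjusted p = 0.139) and -0.53 from control replicate 1 alone, and its Drosha-deleted minus Dicer-deleted difference was 0.37 (adjusted p = 0.639). None of these passed the threshold.

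Across the 9 arrays, the median correlation between pairs of members was 0.24 for 190 pairs of S phase genes, 0.20 for 231 pairs of mitotic genes and 0.19 for 440 mixed pairs. All pairs share the arrays and their split controls, so these values are given as a description.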
